A study of Mus musculus with 6 samples.

Results

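The nuclear pore complex and the transport receptors that pass through it were followed as 55 genes among 12316 gene rows of a comparison made in mouse neural stem cells. The genes were taken by name. They comprise the nucleoporins, the importins and exportins, the transportins, the Ran GTPase with its regulators, and the mRNA export pair Nxf1 and Nxt1, each on a row with a single symbol. Xpo5, the exporter of microRNA precursors, was left out by the rule. Nup62, a central channel protein, is not among the 55 because its row also names Il4i1. In the authors' deposited table that shared row has the levels 24.8 and 31.6, first and second condition in that order.

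The cells were neural stem cells from E14.5 embryos of strain CD-1, bought from R&D Systems and grown as a monolayer with EGF and bFGF. Of the 6 libraries, 2 carried the scrambled shRNA SHC002, 2 carried the Sox4 shRNA TRCN0000012078 and 2 carried the Sox4 shRNA TRCN0000012080. All groups, the scrambled one included, were transduced with lentivirus and selected with puromycin at 0.5 µg/mL, and the 2 libraries of a hairpin came from different passages. The labels do not say whether the passages were separate cultures, and the p-values may therefore reflect technical spread alone.

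The file gives 1 level per gene for each of 2 conditions and does not name them, so every direction below is second over first, and paired values are in that order. Which hairpins were pooled is not stated, and no value per library, standard deviation or depth can be given. Levels are on the FPKM scale as Cuffdiff writes it, which divides by transcript length and by the mapped total. The header itself names no unit. A gene is termed called, and said to have risen or fallen, where the authors set their significance flag. The targeted gene Sox4 had levels of 126.8 and 83.9 (q 0.0543) in the authors' deposited table and missed the flag.

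Nuclear pores are ring-shaped channels in the nuclear envelope. A scaffold of rings is anchored in the membrane by a few transmembrane proteins, and proteins rich in phenylalanine-glycine (FG) repeats fill the channel. Importins and exportins, members of the karyopherin family, bind the repeats and carry cargo. The GTP-bound form of the small GTPase Ran, kept high in the nucleus, releases import cargo and loads export cargo. Dividing cells take the pores apart and rebuild them at each mitosis, and Nup210 is known to vary strongly between tissues and to be needed for muscle and neural differentiation in culture.

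The 5 promoter windows shown here belong to the only called gene, Nup210, to its membrane partner Pom121, to the inner ring pair Nup205 and Nup188, whose folds were nearly equal, and to Kpna2, the most abundant gene of the set in the first condition and one of its lowest folds. Each runs 5′ to 3′ on the strand of its gene, from 250 bases before to 50 after the annotated start, as RefSeq gives it on GRCm38.p6. Capitals mark the motifs searched.
Nup210 (chr6:91116777-91117076, minus strand): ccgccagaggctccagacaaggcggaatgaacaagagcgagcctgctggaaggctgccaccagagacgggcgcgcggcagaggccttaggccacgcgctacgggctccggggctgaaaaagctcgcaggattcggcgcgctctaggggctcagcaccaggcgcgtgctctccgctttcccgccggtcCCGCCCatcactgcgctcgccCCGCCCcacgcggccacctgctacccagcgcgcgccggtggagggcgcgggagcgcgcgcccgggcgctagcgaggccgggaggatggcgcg
Pom121 (chr5:135394497-135394796, minus strand): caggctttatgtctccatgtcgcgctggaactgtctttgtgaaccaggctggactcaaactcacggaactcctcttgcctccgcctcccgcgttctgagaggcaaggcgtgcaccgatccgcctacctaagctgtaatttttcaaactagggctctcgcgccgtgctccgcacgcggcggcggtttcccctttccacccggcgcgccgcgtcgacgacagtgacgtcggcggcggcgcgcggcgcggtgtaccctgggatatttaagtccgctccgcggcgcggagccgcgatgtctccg
Nup205 (chr6:35177366-35177665, plus strand): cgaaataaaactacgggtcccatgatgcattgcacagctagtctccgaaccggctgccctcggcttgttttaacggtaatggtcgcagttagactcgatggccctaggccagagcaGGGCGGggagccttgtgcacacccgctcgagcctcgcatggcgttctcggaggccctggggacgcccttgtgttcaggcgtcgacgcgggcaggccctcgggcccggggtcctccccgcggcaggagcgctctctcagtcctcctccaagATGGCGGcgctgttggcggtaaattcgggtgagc
Nup188 (chr2:30286166-30286465, plus strand): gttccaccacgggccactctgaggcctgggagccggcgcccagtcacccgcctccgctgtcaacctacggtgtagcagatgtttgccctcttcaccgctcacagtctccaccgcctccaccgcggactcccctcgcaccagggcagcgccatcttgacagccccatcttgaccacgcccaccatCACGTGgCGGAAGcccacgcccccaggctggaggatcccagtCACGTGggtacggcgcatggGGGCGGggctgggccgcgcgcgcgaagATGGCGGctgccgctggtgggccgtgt
Kpna2 (chr11:106999476-106999775, minus strand): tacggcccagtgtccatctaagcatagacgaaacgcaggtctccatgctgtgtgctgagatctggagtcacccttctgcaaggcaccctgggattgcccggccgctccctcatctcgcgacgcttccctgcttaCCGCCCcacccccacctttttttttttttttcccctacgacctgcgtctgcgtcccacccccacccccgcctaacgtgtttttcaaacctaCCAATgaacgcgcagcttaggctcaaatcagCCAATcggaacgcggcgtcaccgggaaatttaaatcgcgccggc

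The searched motifs were CACGTG (the E-box), CCAAT (the CCAAT motif), GGGCGG (the GC box), CGGAAG (ETS core) and ATGGCGG (YY1 core). Searched too were AACAAAG and AACAAT (each a motif of SOX proteins) and TATAAA (the TATA box). All were sought on both strands, and none contains another. RefSeq windows were found for 45 of the 55 genes, 55 windows in all. The Nup210 window holds a pair of GC boxes, and the Pom121 window holds none of the 8 motifs. Nup205 and Nup188 share a YY1 core just past the start, and Nup188 also has a pair of E-boxes. The Kpna2 window holds a pair of CCAAT boxes near its start.

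Over all windows of the set, the GC box was in 65.5%, against 63.8% of the 12148 windows of genes in the table and 35.7% of all 32851 windows. CCAAT was in 45.5% of the set's windows, 38.4% of the windows of genes in the table and 37.4% of all. The E-box was in 8 of the set's 55 windows, 9.96% of the windows of genes in the table and 7.15% of all. The YY1 core was likewise in 8 of 55, against 8.11% and 4.05%. The ETS core was in 32.7%, 30.8% and 16.9%, and TATAAA in 9.09%, 6.64% and 13.6%. AACAAAG was in 3.64%, 3.93% and 5.85%, with matches in Nup133 and Tnpo1, and AACAAT in 7.27%, 5.78% and 10.7%. The median GC content was 64.0% over the set's windows, 61.3% over those of genes in the table and 52.7% over all. In GC content and in the GC box the set's windows thus lay nearer to those of genes in the table than to all windows. A match is a run of letters in a window, not a site.

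Kpna2, importin alpha 1, was the most abundant member at 318.0 in the first condition, followed by Ran at 313.6 and its cofactor Ranbp1 at 297.2, in the authors' deposited table. Nutf2, which carries Ran back into the nucleus, Kpnb1, which is importin beta 1, and Rangap1, the Ran GTPase-activating protein, also lay above 100, at 134.0, 129.3 and 107.5 in the authors' deposited table. No other member did. Soluble factors thus held the top of the order. The 27 nucleoporin genes ran from 3.30 for Nupl2, a cytoplasmic-side FG protein, to 43.2 for Seh1l, a Y complex subunit, in the authors' deposited table. Their median was 20.1, against 48.1 for the 28 transport factors and 12.5 for all rows. Kpna2 stood at percentile 98.1 and Nupl2 at percentile 20.1 of all rows. Kpna2 and Nutf2 have annotated pseudogenes, and reads may be split between such copies.

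**Figure D1:**
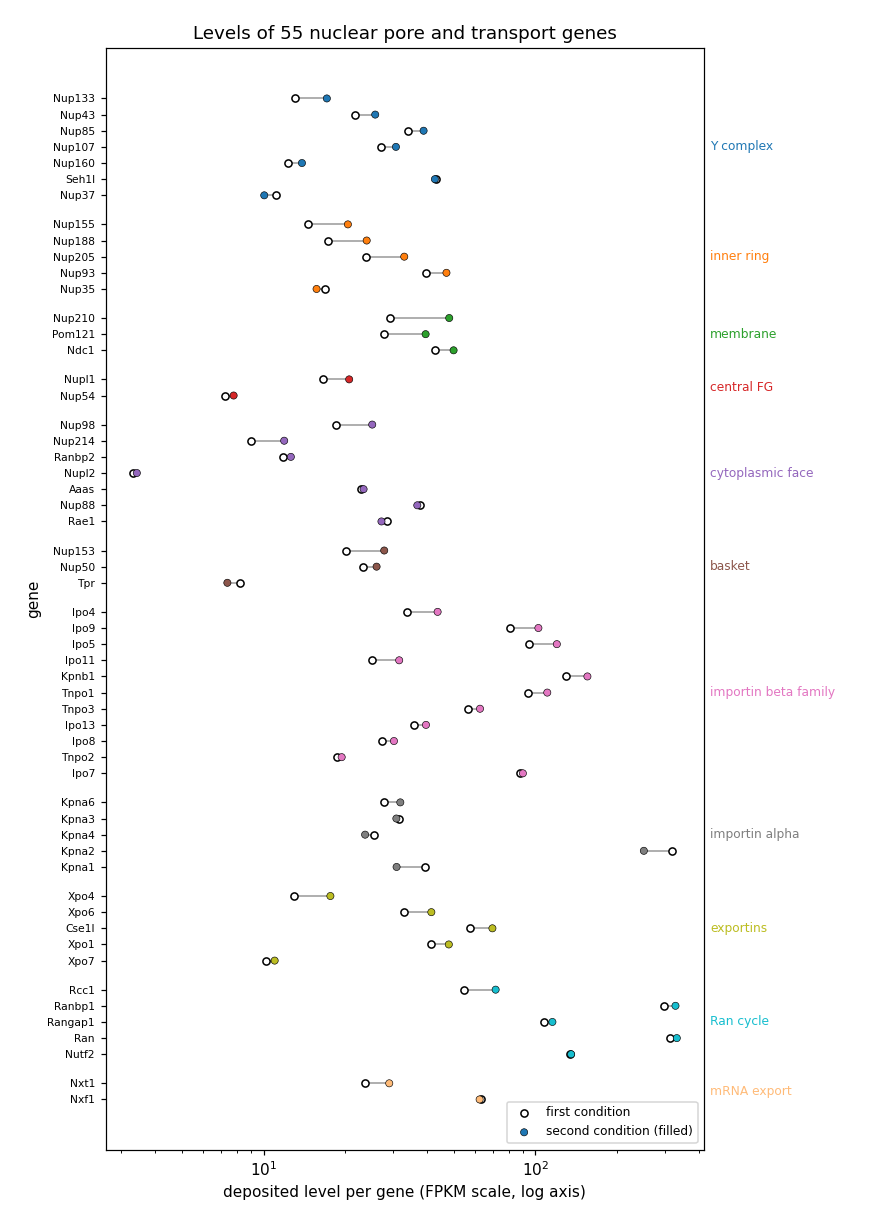
Deposited level of each of the 55 genes on a log axis (FPKM scale), grouped by role, with an open point for the first and a filled point for the second condition. Kpna2, Ran and Ranbp1 sit at the far right near 300 in the first condition, and Nupl2 at the far left at 3.30.

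Of the 55 genes, 1 rose and 0 fell by the authors' flag. Of all rows, 3.17% rose and 1.83% fell, 4.99% together, so a single call among 55 is no more frequent than among all rows. Folds were small but leaned one way: 44 of 55 were positive, 80.0%, against 50.5% of all rows. The median log2 fold was 0.18, against 0.0033 for all rows. At an unadjusted Cuffdiff p under 0.05, which makes no allowance for the number of genes, 12 members were higher and 0 lower. All rows passed that looser threshold as higher in 9.96% and as lower in 7.53% of cases, and the members as higher in 21.8%. These are counts and not a test, and members that share libraries are not replicates.

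Nup210 (chromosome 6, 91013068 to 91116829, minus strand, 40 exons) was the called gene. It encodes a membrane-spanning nucleoporin. In the authors' deposited table its level rose from 29.3 to 48.2, which is 1.65-fold. The log2 fold was 0.72 and the q 0.00304 in the authors' deposited table, and the p of 5e-05 is the lowest in the table. That p is shared by 230 rows, so Nup210 cannot be ranked among them. The ratio of log2 fold to test statistic, which is the log2 fold that would give a statistic of 1 and serves here as a measure of spread, was 0.30 for Nup210. No exon of another annotated gene overlaps its exons.

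The other membrane-anchored genes had positive folds that were not called. Pom121, an FG protein that holds the pore to the membrane (chromosome 5, 135376141 to 135394546, minus strand), stood at 27.8 and 39.4 (log2 fold 0.51) in the authors' deposited table. Its q of 0.0920 was the lowest among the members not called. Exons of Pom121 overlap Nsun5 on the other strand, and strand handling is not given. The smallest absolute log2 fold among all called rows was 0.55, so Pom121 and every other member but Nup210 lay below the size at which any row was called. Ndc1, another membrane anchor, stood at 42.7 and 49.99 (log2 fold 0.23) in the authors' deposited table. For the 3 together the median log2 fold was 0.51, the highest of the 11 role groups. Their summed levels were 99.7 and 137.6.

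Among scaffold genes the inner ring had a higher median fold than the Y complex. Nup155 stood at 14.6 and 20.4 (log2 fold 0.48, q 0.121) in the authors' deposited table. Nup205 stood at 23.8 and 32.9, and its paralogue Nup188 at 17.3 and 24.0, in the authors' deposited table. Both had a log2 fold of 0.47, with q of 0.118 and 0.122 in the authors' deposited table. Nup93, their adaptor, stood at 39.7 and 47.1, and Nup35, a small membrane-binding subunit, at 16.8 and 15.7, in the authors' deposited table. Nup35 was thus the inner ring gene whose level was lower in the second condition. None of the 5 was called, and the group's median log2 fold was 0.47. Folds also moved with transcript length, and after the median of rows of like length (10 groups, given with the length plot) was taken off, the inner ring's median was 0.26 and that of the Y complex 0.19. Exons of Nup188 overlap Gm28038 on the same strand, and those of Nup35 overlap Dusp19.

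The Y complex, the outer ring scaffold that also sits on kinetochores in mitosis, likewise had folds of both signs. Nup133 stood at 13.0 and 17.1 (log2 fold 0.39, q 0.258) in the authors' deposited table. Nup43, Nup85, Nup107 and Nup160 had log2 folds from 0.17 to 0.25. Seh1l stood at 43.2 and 42.7, and Nup37 at 11.1 and 10.1, in the authors' deposited table, so the pair had slightly negative folds of -0.02 and -0.14. Of the 7 genes 0 were called, with a median log2 fold of 0.18.

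The FG proteins and the genes of the pore's outer faces were split by gene. Nup98, an FG protein of both faces whose transcript also encodes the scaffold protein Nup96, stood at 18.5 and 25.1 in the authors' deposited table. Nup214, a cytoplasmic FG protein that docks export receptors, stood at 9.0 and 11.9 in the authors' deposited table. Their log2 folds were 0.44 and 0.41, with q of 0.234 and 0.224 in the authors' deposited table. The partner of Nup214, Nup88, stood at 37.7 and 36.8, and Rae1, the mRNA export partner of Nup98, at 28.5 and 27.1, in the authors' deposited table. In both pairs the larger FG protein had the positive fold and its smaller partner a slightly negative one, but with the median of the length group taken off Nup88 and Rae1 turned to 0.02 each and the contrast in direction was gone. Ranbp2, the main protein of the cytoplasmic filaments, had a log2 fold of 0.10, which turned to -0.13 with its length group's median taken off. Aaas and Nupl2 had log2 folds of 0.04 and 0.05.

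The central channel was covered by Nup54 and Nupl1, with log2 folds of 0.11 and 0.32. Nupl1 stood at 16.6 and 20.6 in the authors' deposited table, but its ratio of log2 fold to test statistic was 2.67, against 0.29 to 0.44 for the other 54 genes and a median of 0.35 for all rows. Its exons overlap Atp8a2, Gm49336 and Mir719 on the same strand. The value for Nupl1 is therefore much less precise than the others. On the nuclear basket, Nup153 stood at 20.1 and 27.8 (log2 fold 0.47, q 0.130) in the authors' deposited table. Nup50, which helps recycle importin alpha, had a log2 fold of 0.16. Tpr, the filament protein of the basket, stood at 8.2 and 7.4 (log2 fold -0.16) in the authors' deposited table. The 3 basket genes thus did not share a direction, and 0 were called.

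**Figure D2:**
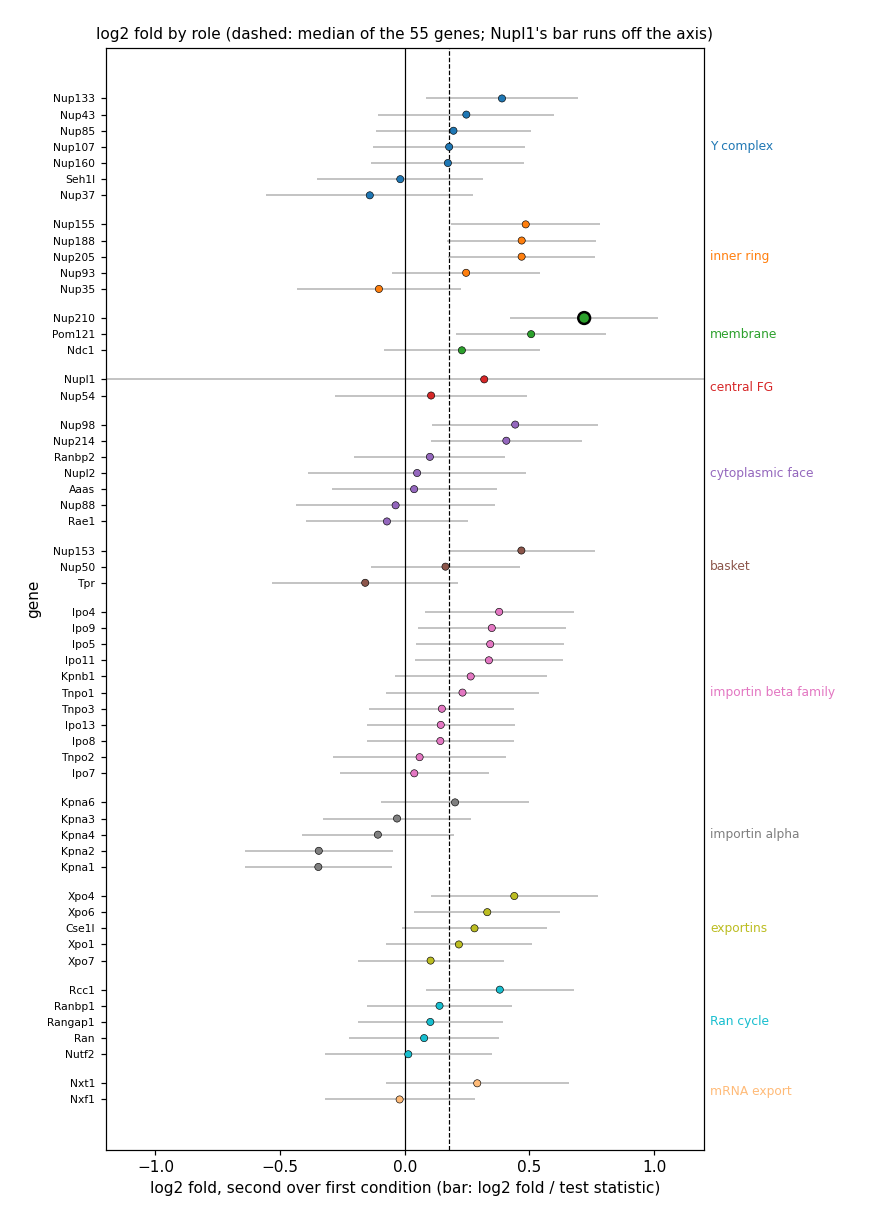
log2 fold of the second over the first condition for the 55 genes by role; bars extend by the log2 fold divided by the test statistic, and the large outlined point is the called gene. Nup210 lies farthest right at 0.72, all 16 importin beta family and exportin genes lie right of 0 (12 of 16 with length-group medians taken off), and 4 of 5 importin alpha genes lie left of it.

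The set's 16 receptors of the karyopherin beta family all had positive folds, 11 of 11 importins and transportins and 5 of 5 exportins. With the length-group median taken off this held for 12 of the 16, as Ipo7, Tnpo1, Tnpo2 and Xpo7 turned to -0.04, -0.0025, -0.02 and -0.13. None of the 16 was called. Of family members left out by the name rule, Xpot, Ranbp6 and Ranbp17 had log2 folds of 0.25, -0.26 and -0.05, also not called. Kpnb1, which works with importin alpha on classical import signals, stood at 129.3 and 155.3 (log2 fold 0.26) in the authors' deposited table. Ipo4, an importer of histones and ribosomal proteins, stood at 33.6 and 43.7 (log2 fold 0.38, q 0.273) in the authors' deposited table. Ipo5 and Ipo9, which also carry histones and ribosomal proteins, stood at 94.5 and 119.8 and at 80.5 and 102.5 in the authors' deposited table. Ipo11 had a log2 fold of 0.34, close to 0.34 for Ipo5 and 0.35 for Ipo9. The smallest fold of the group was that of Ipo7, at 87.5 and 89.9 in the authors' deposited table. The transportins Tnpo1, Tnpo2 and Tnpo3 had log2 folds of 0.23, 0.06 and 0.15. The summed level of the 11 genes was 682.6 and 804.8, with a median log2 fold of 0.23, or 0.14 with the length-group medians taken off.

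Among the exportins, Xpo1, the receptor for leucine-rich export signals, stood at 41.3 and 48.0 (log2 fold 0.22) in the authors' deposited table. Cse1l, which returns importin alpha to the cytoplasm, stood at 57.2 and 69.4 (log2 fold 0.28) in the authors' deposited table. Xpo4 stood at 13.0 and 17.6 (log2 fold 0.44, q 0.245) in the authors' deposited table. Xpo6, the exporter of actin, and Xpo7 had log2 folds of 0.33 and 0.10. The median of the 5 was 0.28. Exons of Xpo4, Xpo7 and Ipo4 each overlap another gene on the same strand.

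Importin alpha genes, the adaptors that recognise classical import signals, leaned the other way. Kpna1 stood at 39.2 and 30.8 (log2 fold -0.35, q 0.316) in the authors' deposited table. Kpna2 stood at 318.0 and 250.4 (log2 fold -0.34, q 0.326) in the authors' deposited table. Kpna3 and Kpna4, which are close paralogues, had log2 folds of -0.03 and -0.11. Kpna6 was the exception at 27.7 and 31.8 (log2 fold 0.20) in the authors' deposited table. The 5 genes had a median log2 fold of -0.11 (-0.29 with length-group medians taken off) and 0 calls, and a summed level of 441.8 and 367.5. Kpna2 made up most of that sum. That importin alpha differs from the beta family was not tested, and the same libraries underlie both.

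The Ran cycle genes, among the most abundant of the set, had mostly small positive folds. Ran stood at 313.6 and 330.9, Ranbp1 at 297.2 and 327.3, and Nutf2 at 134.0 and 135.3, in the authors' deposited table. Rangap1 stood at 107.5 and 115.4 in the authors' deposited table. Rcc1, the chromatin-bound exchange factor that loads Ran with GTP, stood apart at 54.8 and 71.4 (log2 fold 0.38, q 0.261) in the authors' deposited table. Exons of Rcc1 overlap the small nucleolar RNA host gene Snhg3 on the same strand, so part of its level may belong to that transcript. The 5 log2 folds were all positive, from 0.01 to 0.38, and 0 were called. Of the mRNA export pair, Nxf1 stood at 63.2 and 62.3 and its cofactor Nxt1 at 23.7 and 29.0, in the authors' deposited table, and neither was called.

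Folds in this table moved with transcript length, and so did those of the 55 genes. Rows were split into 10 equal groups by the longest GENCODE transcript, taken among protein-coding transcripts where a gene has any. The median log2 fold of all rows went from -0.22 in the shortest to 0.23 in the longest group. Of the rows in the longest group 13.2% rose, and of those in the shortest 0.493%. Nup210, with a transcript of 7037 nt, is in the longest group, and its log2 fold exceeded that group's median by 0.49. Across genes, Spearman's rho between length and log2 fold was 0.30 over 12155 rows, 0.39 over the 55 genes, 0.54 over the 27 nucleoporins and 0.12 over the 28 transport factors. Those values describe genes that share the same libraries, and the part of length in the results was not tested.

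**Figure D3:**
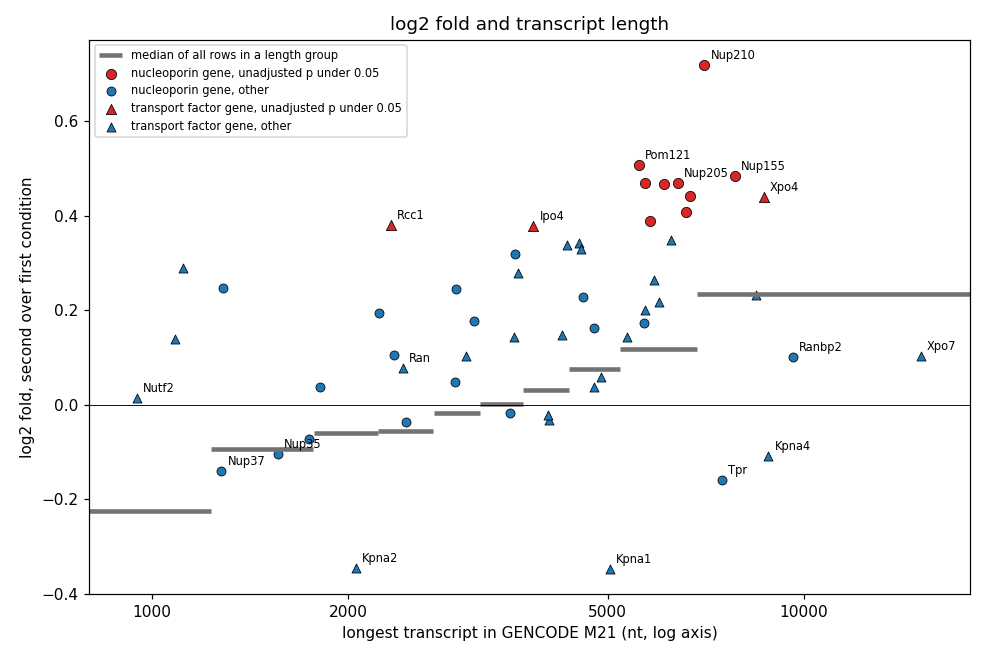
log2 fold against the longest annotated transcript, protein-coding where a gene has one (nt, log axis), for the 55 genes. Grey segments mark the median of all rows in each of 10 length groups. Red points, with an unadjusted p under 0.05, cluster among nucleoporins above 5224 nt, while Tpr, Kpna4, Ranbp2 and Xpo7 lie below the median of their own length group.

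Among nucleoporins, small p-values stood with long transcripts. Of the 12 nucleoporin genes in the 2 longest groups, above 5224 nt, 11 had a positive fold and 9 had an unadjusted p under 0.05. Of the 15 shorter ones 10 were positive and 0 had such a p. The 9 were Nup98, Nup133, Nup153, Nup155, Nup188, Nup205, Nup210, Nup214 and Pom121. The exception among long nucleoporins was Tpr, of 7480 nt, with its negative fold. Ranbp2, of 9608 nt, had a log2 fold of 0.10, less than the 0.23 of its length group. The transport factors with an unadjusted p under 0.05 were Ipo4, Rcc1 and Xpo4, of which Xpo4 alone has a transcript in those groups.

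Within 3 classes of transcript length, the share of positive folds was higher among the genes than among the rows of the class, while the share with a small p was lower in the middle class. From 5224 nt upward, 19 of 21 genes were positive, against 71.1% of rows, and 10 of 21 had an unadjusted p under 0.05 as higher, against 24.3% of rows. Between 2702 and 5223 nt, 16 of 20 were positive, against 53.7% of rows, but 1 of 20 had such a p, against 9.09%. Up to 2701 nt, 9 of 14 were positive, against 37.0% of rows, and 1 of 14 had such a p, against 3.81%. In the ninth group alone, from 5224 to 6847 nt, all 13 genes lay above the group's median, and 7 had such a p, against 17.2% of its rows. In the longest group 3 of 8 genes lay above the median, and 6 of 8 were positive, against 75.2% of its rows. With the length-group medians taken off, 41 of 55 genes were positive and their median was 0.15.

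**Figure D4:**
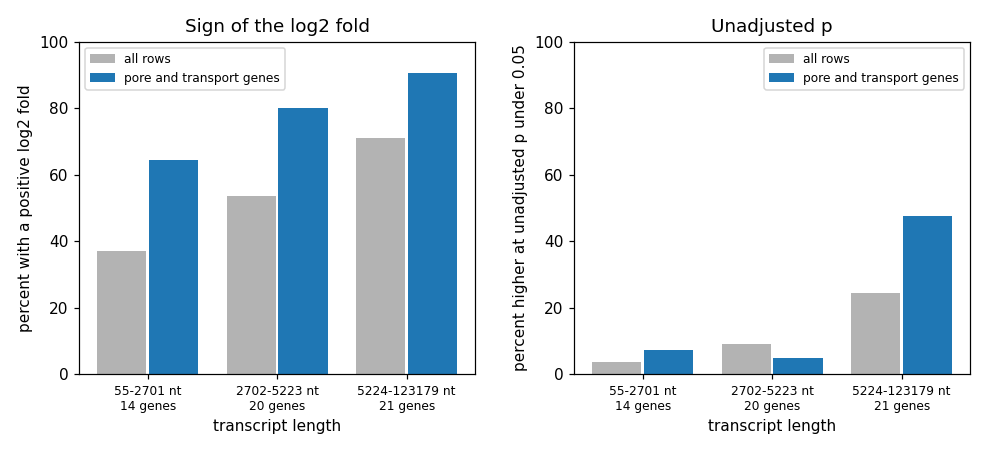
Percent of all rows (grey) and of the 55 genes (blue) with a positive log2 fold (left) and with an unadjusted p under 0.05 as higher (right), in 3 classes of transcript length. The share with a positive fold is higher for the 55 genes in each class, 9 of 14, 16 of 20 and 19 of 21, and the share with a small p is highest in the longest class at 10 of 21.

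Related genes outside the set were taken from 4 lists. Among all rows, for comparison, 50.5% had a positive fold, 3.17% rose and 1.83% fell. Of 13 further transport factors such as Xpot, Ranbp3 and Nxt2, 8 had a positive fold and 0 were called, with a median log2 fold of 0.10. Nxt2 had the largest absolute fold of the 13, at 25.1 and 16.4 (log2 fold -0.62, q 0.0587) in the authors' deposited table. Of 17 pore assembly and pore-bound factors, among them Ahctf1 and Sec13, 6 were positive and 0 were called, with a median of -0.07. Sec13, a Y complex subunit that also coats transport vesicles, stood at 86.8 and 90.1 in the authors' deposited table. Ahctf1, which seeds pores on chromatin, stood at 7.9 and 9.8 in the authors' deposited table. Of 19 genes listed for the lamina and envelope, 11 were positive and 0 were called, with a median of 0.07. The 19 include Nemf, with a log2 fold of -0.30, which is not a lamina or envelope gene.

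Of 27 mRNA export factors 1 rose, 1 fell and 13 were positive, with a median log2 fold of -0.0033. With 3.17% of all rows called as higher and 1.83% as lower, 1 gene in each direction is near the background. In the authors' deposited table, Alyref, which loads the export receptor onto spliced mRNA, rose from 161.7 to 260.6. Shfm1, a small subunit of several complexes including the proteasome and the export complex TREX-2, fell in the authors' deposited table from 166.0 to 90.7. The positive lean of the 55 genes was thus not matched by the counts of the assembly and mRNA export lists. Those lists have shorter transcripts, with medians of 3039 and 2860 nt, against 4518 nt for the 55 genes. With the length-group medians taken off, 7 of 17 assembly genes and 16 of 27 mRNA export genes were positive, against 41 of the 55. The difference between the lists and the set was not tested.

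The labelled cell type was checked against its markers. Of all rows, for comparison, 3.17% rose and 1.83% fell. Of 12 marker names for neural stem cells and radial glia 10 were matched to a row of their own. Blbp, which was not, is another name of the matched gene Fabp7. Of the 10 matched genes 1 rose and 2 fell, and their summed level was 6270.8 and 4098.7. In the authors' deposited table, Nes, an intermediate filament gene, rose from 98.1 to 169.8. The level of Fabp7, a lipid carrier of radial glia that makes up most of the sum, by the authors' deposited table fell from 4620.4 to 2285.8, and that of Hes5, a Notch target, from 37.3 to 14.4. Sox2, Vim and Slc1a3 stood at 59.7 and 51.1, at 709.3 and 774.8, and at 543.6 and 565.0 in the authors' deposited table and were not called. Of 5 microglial, 4 endothelial and 6 fibroblast markers, 0 are among the rows analysed here with a symbol of their own. Of 7 astrocyte markers 4 fell and 1 rose, and their summed level was 1254.7 and 862.4. Aldoc, which was not called, made up most of that sum, at 1100.75 and 795.96 in the authors' deposited table. In the same table Gfap fell from 29.7 to 5.1, Agt from 22.9 to 4.7 and Aqp4 from 8.3 to 3.5. Slc1a2 fell there from 77.8 to 34.9, while Aldh1l1 rose from 5.0 to 11.6. Of 8 oligodendrocyte lineage markers listed, 6 were matched and 2 fell, with sums of 1417.1 and 1217.3. Of 7 neuron markers listed, 5 were matched and 1 fell, with sums of 134.4 and 135.6. Olig1 made up most of the oligodendrocyte sum, at 937.2 and 809.9 in the authors' deposited table. Map2 made up most of the neuron sum, at 122.1 and 127.4 in the authors' deposited table. Elavl4 fell there from 4.2 to 2.1, and 3 of the 5 neuron markers had positive folds. Of 6 proliferation markers 1, Mcm2, rose, with sums of 841.4 and 964.5. These values moved between the same conditions as Nup210, and their part in its rise was not tested. In bulk RNA, fewer cells of a type and less RNA per cell cannot be told apart.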

How the data were processed

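Poly(A) RNA of 6 samples was made into libraries with the kit SOLiD Total RNA-Seq, as the labels' protocols state. Build mm10, Cuffdiff (no version), Cufflinks 2.2.1 and TopHat2 2.0.9 are named in the submitters' processing notes. The annotation, like strand handling, is not given in the sources used here. Deposited columns give FPKM-scale levels, a log2 fold, a test statistic (a score), a p-value and a q-value per gene, per the file headers. The unit FPKM of the deposited levels is read from Cuffdiff's format, since the header does not state it. Cuffdiff's q is adjusted over the authors' tests, and nothing was refitted, since no value per library was analysed.

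Members were taken by symbol and given 11 roles. Members and lists were chosen with earlier results of these data known, and the motifs with promoter sequences in view. Named are called members, those with an unadjusted p under 0.05, the extremes of each role and a few fixed genes, of called genes in related lists up to 10, and others to complete a role. Lengths and positions came from GENCODE M21 on GRCm38 for 12155 rows and all 55 members, and promoters from RefSeq. Of the members, 20 share exon bases with another gene on the same or the other strand, among them Nup133, Nup214 and Pom121. Length groups and Benjamini-Hochberg values were tested on simulated data. Alternatives covered q, fold, level filters, pseudocounts, centring and length. No protein sequences were used here. Tools were matplotlib 3.10.9, statsmodels 0.14.6, scipy 1.17.1, pandas 2.3.3, numpy 2.4.6 and Python 3.11.15.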

Additional observations from a re-analysis of the deposited data

How the results depend on the processing

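The single rise among the 55 genes kept its call at a q under 0.01, with q recomputed over rows with a level of at least 1, and with both level filters, and the sign of its fold held with the length-group median taken off. It became 0 at an absolute log2 fold of at least 1 and 0 without the longest 10% of transcripts, as Nup210 has a log2 fold of 0.72 and is one of those transcripts. The count of falls was 0 in each of these. The positive folds numbered 44, and 25 of 34 genes without the longest 20% of transcripts, where there are fewer genes. The members higher at an unadjusted p under 0.05 went from 12 to 9 without the longest 10% of transcripts, to 2 without the longest 20%, and to 5 at a p under 0.01. The alternatives without the longest transcripts, and all of those on the unadjusted p, were chosen after seeing the data. With the length-group median taken off, 4 of 11 role medians moved by over 0.1: the Ran cycle to 0.24, importin alpha to -0.29, the inner ring to 0.26 and the membrane genes to 0.39. Of the 55 other alternative role medians 0 moved so far. Of 220 alternative values of the 55 members, 7 had another sign, all with the length-group median taken off: Nup88 and Rae1 turned positive, and Ranbp2, Xpo7, Ipo7, Tnpo2 and Tnpo1 negative. No paired analysis was possible because values of single passages were not analysed here, only 1 level for each condition. Leaving out each replicate was not run for the same reason. Depth is unknown and sets no stated limit.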
